A study of Mus musculus with 47 samples.

Results

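The genes described here are the 7 protein-coding and long noncoding genes of the Dlk1-Meg3-Dio3 imprinted domain on mouse chromosome 12: Begain, Dlk1, Meg3, Rtl1, Rian, Mirg and Dio3. They were found by Ensembl identifier among 53402 genes of an adult and 55471 genes of a neonatal table of read counts, and all 7 passed the filter on low counts in both tables. The domain was chosen because Meg3 was already known to be far higher after loss of EED in these libraries. The values that chose it are therefore those of the comparisons that vary EED, and for the members these comparisons are given as levels and fold changes with no test. Comparisons that vary Aire or the cell fraction were not used in the choice and are tested. Those in the neonatal table share libraries with the comparisons that vary EED, so their p-values are not fully independent of the choice.

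The 47 libraries were made from medullary thymic epithelial cells (mTECs) of C57BL/6 mice, sorted by flow cytometry as live CD45-, EpCAM+ and Ly51- cells. Cells with much surface MHC class II, a mark of maturation, form the mTEChi fraction, and those with little form the mTEClo fraction. The 23 adult libraries came from WT mice of 4 to 5 weeks (7 of mTEChi, 8 of mTEClo) and AireKO mice of 5 to 6 weeks (4 of each fraction). All adult AireKO libraries came from males, while WT libraries of each fraction came from either sex, so sex is in part mixed with genotype there. The 24 neonatal libraries came from mice of 1 to 6 days. Of these, the mTEChi libraries were 5 Ctrl, 3 EEDcKO, 3 AireKO and 3 AireEEDdKO, and the mTEClo libraries were 3 Ctrl, 4 EEDcKO and 3 AireEEDdKO, with no AireKO group. AireKO and AireEEDdKO mice were 4 to 6 days old and mTEClo Ctrl mice 1 to 3 days old. All mTEClo AireEEDdKO libraries and mTEClo EEDcKO replicates 3 and 4 were registered apart from the others. The labels do not say whether they were made apart. Such a difference could not be told apart from the effect compared in mTEClo AireEEDdKO against Ctrl or between fractions of AireEEDdKO. It is mixed in part with the other comparisons that use mTEClo EEDcKO. AireKO mice lack functional Aire in every cell, while EEDcKO mice carry floxed EED alleles cut by Cre under Foxn1, a gene of thymic epithelium. AireEEDdKO mice combine both defects, and the alleles of the Ctrl mice are not given in the sources used here. Several neonatal libraries pooled male and female animals, and the sources do not say which other libraries share an animal or litter, so p-values measure the spread between these libraries, which may be partly technical.

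Genomic imprinting is the expression of a gene from only the chromosome of 1 parent. In this domain the long noncoding RNAs Meg3, Rian and Mirg, together with large arrays of microRNAs and small nucleolar RNAs processed from them, are transcribed from the maternal chromosome, while Dlk1, Rtl1 and Dio3 are transcribed mainly from the paternal chromosome. Imprinting of Begain varies by tissue. A methylated control region between Dlk1 and Meg3 sets the pattern, and Polycomb repressive complex 2 (PRC2), of which EED is a core subunit, is known to bind RNA of Meg3 and to act in the domain. Aire is a nuclear factor of mTECs that switches on many genes otherwise restricted to peripheral organs. Read counts carry no allele, so maternal and paternal stand below for the known parental class of a gene and not for a measured origin.

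The members spanned 1249 kb, chr12:109032187-110281097 of GRCm38, in the order Begain, Dlk1, Meg3, Rtl1, Rian, Mirg and Dio3, with Begain and Rtl1 on the minus strand and the others on the plus strand. Promoter sequences, from 250 bases before to 50 bases after each start site in RefSeq on GRCm38.p6, were found for 6 of the 7 members. Those of 4 members that behaved differently are shown, since CpG content is a feature on which Polycomb recruitment is known to depend, with every CpG in capitals.
Meg3 (chr12:109540746-109541045, plus strand): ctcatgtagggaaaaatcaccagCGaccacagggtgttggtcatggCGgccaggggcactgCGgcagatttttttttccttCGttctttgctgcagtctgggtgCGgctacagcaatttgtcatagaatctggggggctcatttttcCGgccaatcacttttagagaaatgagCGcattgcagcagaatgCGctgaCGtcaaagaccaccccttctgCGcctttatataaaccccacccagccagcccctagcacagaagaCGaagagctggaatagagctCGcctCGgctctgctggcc
Dlk1 (chr12:109452573-109452872, plus strand): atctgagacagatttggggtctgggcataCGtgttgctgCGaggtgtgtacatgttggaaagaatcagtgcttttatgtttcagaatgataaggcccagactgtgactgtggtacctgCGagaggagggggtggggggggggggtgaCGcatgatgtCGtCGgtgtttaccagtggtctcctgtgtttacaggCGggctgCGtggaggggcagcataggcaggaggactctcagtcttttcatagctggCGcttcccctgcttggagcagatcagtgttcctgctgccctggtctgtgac
Rian (chr12:109603695-109603994, plus strand): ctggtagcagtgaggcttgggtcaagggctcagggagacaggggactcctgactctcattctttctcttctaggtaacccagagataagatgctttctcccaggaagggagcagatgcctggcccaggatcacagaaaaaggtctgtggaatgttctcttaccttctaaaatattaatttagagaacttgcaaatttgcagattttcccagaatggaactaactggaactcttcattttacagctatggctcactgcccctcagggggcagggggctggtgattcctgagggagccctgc
Dio3 (chr12:110278980-110279279, plus strand): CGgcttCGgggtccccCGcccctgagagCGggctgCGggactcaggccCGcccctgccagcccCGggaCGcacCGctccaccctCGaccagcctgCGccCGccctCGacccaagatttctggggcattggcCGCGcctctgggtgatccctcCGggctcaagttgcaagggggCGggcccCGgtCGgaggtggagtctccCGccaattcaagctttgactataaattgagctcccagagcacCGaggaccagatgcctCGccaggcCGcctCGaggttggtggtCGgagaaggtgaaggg
These windows held 13 CpGs for Meg3, 9 for Dlk1, 0 for Rian and 25 for Dio3, beside a median of 7 over 32851 mouse promoters of the same length. The 5 annotated start sites of Begain had 34 to 46 CpGs and the window of Mirg had 10. A second annotated start site of Meg3, not shown, had 1 CpG. The hexamer TGCCGC, the core of the sequence bound by ZFP57, was sought on both strands. It was found in the Meg3 window shown and in 11.6% of all promoters, and in no other window of a member. The letters TATAAA were found in the windows shown of Meg3 and Dio3 and in 13.6% of all promoters. The second Meg3 window held neither.

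Rtl1 has special limits here. On the strand opposite to it lie 6 annotated genes, all precursors of maternally expressed microRNAs, and 1 further annotated gene lies on its own strand. The authors counted reads without regard to strand, so reads of Rtl1 and of the transcript opposite to it cannot be told apart. The mature sequences of 1 arm of each of the 6 precursors are shown from RefSeq (GRCm38.p6, plus strand), with the seed, bases 2 to 8, in capitals.
mmu-miR-431-5p (chr12:109590459-109590479): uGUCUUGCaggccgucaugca
mmu-miR-433-3p (chr12:109591781-109591802): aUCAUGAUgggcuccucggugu
mmu-miR-127-3p (chr12:109592888-109592909): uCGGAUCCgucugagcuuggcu
mmu-miR-434-3p (chr12:109594565-109594586): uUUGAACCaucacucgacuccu
mmu-miR-432 (chr12:109595006-109595028): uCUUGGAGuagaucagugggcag
mmu-miR-136-5p (chr12:109595331-109595352): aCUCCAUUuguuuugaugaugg
No 2 of these seeds are the same. RefSeq lists 114 mature microRNAs from 58 hairpins over the whole span, with 104 different seeds, of which 10 belong to more than 1 microRNA. None of them was measured in its mature form, because the libraries hold long RNA.

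Libraries held 1602125 to 3938588 counts in the adult and 1578579 to 4817418 in the neonatal table. Eed, read as a check of genotype, had 14.7 ± 4.59 CPM (counts per 1000000 counts of a library, after TMM scaling) in mTEChi EEDcKO and 28.9 ± 7.86 in mTEChi Ctrl, and 15.04 ± 1.12 in mTEClo EEDcKO beside 24.03 ± 1.42 in mTEClo Ctrl, where a gene-level count includes exons outside the floxed part. Aire had 816 ± 57.6 CPM in adult mTEChi WT and 28.4 ± 11.2 in mTEChi AireKO. The defining mTEC markers (10 genes, among them Epcam, Krt5 and Foxn1) were found in every group, with summed levels of 1473 to 3929 CPM per library. In 6 adult libraries no mitochondrial count was present, namely in all 4 of mTEChi AireKO and in replicates 3 and 4 of mTEClo AireKO, so that this difference between libraries and loss of Aire cannot be told apart in adult mTEChi.

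Meg3, a noncoding RNA (chr12:109541001-109571726), was higher in every neonatal library without EED than in any Ctrl library of its fraction. In mTEChi, Meg3 was at 13.4, 12.03, 15.3, 7.33 and 17.9 CPM in the 5 Ctrl libraries and at 154, 110.0 and 124 CPM in the 3 EEDcKO libraries. In mTEClo, Meg3 was at 30.1, 40.0 and 32.9 CPM in Ctrl and at 406, 357, 260.3 and 281 CPM in EEDcKO. The fitted log2 fold changes were 3.27 (SE 0.29) in mTEChi and 3.24 (SE 0.31) in mTEClo. In these sorted bulk samples, fewer cells of a kind and less RNA per cell cannot be told apart. In Aire-deficient mTEChi, Meg3 was at 14.9, 4.78 and 12.1 CPM with EED and at 537, 304 and 239.9 CPM without it, a log2 fold change of 5.04 (SE 0.38). The 3 mTEClo AireEEDdKO libraries had 472, 234 and 419 CPM, overlapping with mTEClo EEDcKO, and lay 3.44 (SE 0.32) above Ctrl on the log2 scale.

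Rian, the host of a cluster of small nucleolar RNAs (chr12:109603940-109661716), followed Meg3 but by a smaller fold in EEDcKO of both fractions. It was at 30.1, 34.4, 28.1, 20.4 and 30.7 CPM in mTEChi Ctrl and at 125, 77.01 and 49.3 CPM in mTEChi EEDcKO, a log2 fold change of 1.53 (SE 0.30). In mTEClo the corresponding levels were 26.8, 37.2 and 49.7 CPM and 249.5, 197, 141 and 189.5 CPM, a log2 fold change of 2.38 (SE 0.33). The EEDcKO libraries were above all Ctrl libraries in both fractions, although mTEChi EEDcKO replicate 3 was not far above the highest Ctrl library. The counts of Rian per count of Meg3 were 2.29 ± 0.525 (n = 5) in mTEChi Ctrl and 0.636 ± 0.215 (n = 3) in mTEChi EEDcKO. This ratio was lower in all 3 mTEChi EEDcKO libraries (0.397 to 0.812) than in any mTEChi Ctrl library (1.71 to 2.86). In mTEClo it was also lower without overlap, at 0.543 to 0.675 in EEDcKO (n = 4) and 0.889 to 1.51 in Ctrl (n = 3).

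Mirg, the host of the distal microRNA cluster (chr12:109729764-109749460), differed between the fractions. In mTEChi it was at 3.905, 5.16, 6.27, 4.45 and 5.11 CPM in Ctrl and at 19.04, 11.7 and 3.12 CPM in EEDcKO, and the groups overlapped because replicate 3, from mice of 1 day, was below every Ctrl library. In mTEClo it was at 2.35, 4.87 and 2.23 CPM in Ctrl and at 29.1, 23.5, 16.1 and 24.03 CPM in EEDcKO, with no overlap. Fitted log2 fold changes were 1.06 (SE 0.42) in mTEChi and 2.81 (SE 0.47) in mTEClo. Without replicate 3 of mTEChi EEDcKO the first of these became 1.54. In Aire-deficient mTEChi, Mirg was at 2.04, 4.098 and 4.76 CPM with EED and 75.3, 41.2 and 41.04 CPM without it.

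**Figure D1:**
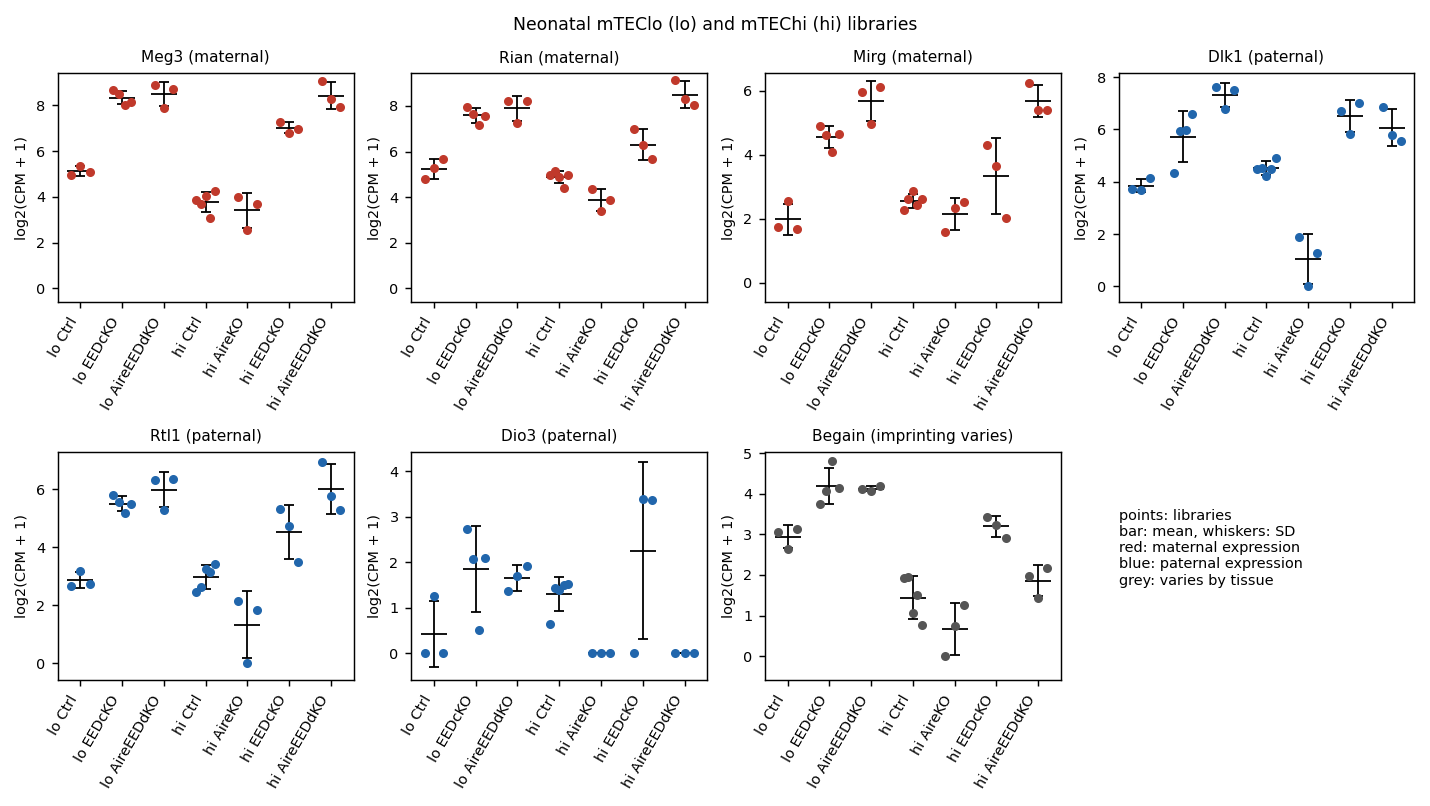
Levels of the 7 members in each neonatal library, as log2(CPM + 1) on the y axis, for mTEClo (lo) and mTEChi (hi) groups on the x axis; points are libraries, bars are means and whiskers are SD. Meg3, Rian, Rtl1 and Dlk1 were higher in every EEDcKO and AireEEDdKO group than in Ctrl of the same fraction, and Dio3 was at 0 in all mTEChi AireKO and mTEChi AireEEDdKO libraries.

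Among the paternally expressed genes, Dlk1 (chr12:109452823-109463336), a membrane protein that is known to modulate Notch signalling and to keep precursor cells undifferentiated, was also higher without EED. In mTEChi it was at 21.8, 22.3, 17.5, 21.5 and 29.3 CPM in Ctrl and at 103, 56.2 and 128 CPM in EEDcKO. In mTEClo it was at 12.4, 11.8 and 16.7 CPM in Ctrl and at 19.04, 60.9, 62.8 and 95.9 CPM in EEDcKO. The groups did not overlap, but mTEClo EEDcKO replicate 1, at 19.04 CPM, was close to the highest Ctrl library, at 16.7 CPM. Fitted log2 fold changes were 2.07 (SE 0.37) and 2.16 (SE 0.44). In Aire-deficient mTEChi, Dlk1 was at 2.72, 0 and 1.401 CPM with EED and at 116, 53.9 and 45.8 CPM without it, a fitted log2 fold change of 5.64 (SE 0.69). This was the largest of a member in the comparisons that vary EED, but it rests on at most 5 counts in a library with EED. In the same comparison Meg3 (5.04, SE 0.38) and Rtl1 (5.02, SE 0.60) lay within its standard error.

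Rtl1 (chr12:109589193-109600330), a gene derived from a retrotransposon that is needed in the placenta, was at 4.46, 5.16, 8.46, 7.86 and 9.76 CPM in mTEChi Ctrl and at 38.7, 25.6 and 10.3 CPM in mTEChi EEDcKO. In mTEClo it was at 5.36, 8.001 and 5.58 CPM in Ctrl and at 54.4, 45.97, 34.9 and 44.3 CPM in EEDcKO. The EEDcKO libraries were above all Ctrl libraries in both fractions, by log2 fold changes of 1.66 (SE 0.41) and 2.80 (SE 0.47). Since strand was not counted, Rtl1 was also set against its maternally expressed neighbours: per 100 counts of Meg3 and Rian together there were 8.84 ± 1.87 counts of Rtl1 in mTEClo Ctrl (n = 3), 8.68 ± 0.529 in mTEClo EEDcKO (n = 4) and 10.4 ± 0.679 in mTEClo AireEEDdKO (n = 3). In mTEChi the same ratio was 17.9 ± 7.42 in Ctrl (n = 5), 11.2 ± 4.54 in EEDcKO (n = 3) and 9.12 ± 1.805 in AireEEDdKO (n = 3). Ctrl overlapped with both groups without EED in each fraction, and the mean ratio without EED was close to that of Ctrl in mTEClo and lower in mTEChi. The part that reads from the opposite strand have in these values was not tested.

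Dio3 (chr12:110279068-110281097), the enzyme that inactivates thyroid hormone, was the member with the fewest counts. It was at 0.558, 1.72, 1.64, 1.83 and 1.86 CPM in mTEChi Ctrl and at 0, 9.54 and 9.36 CPM in mTEChi EEDcKO, where replicate 1 had 0 counts and the other two had 44 and 30. In mTEClo it was at 0, 1.39 and 0 CPM in Ctrl and at 5.68, 3.21, 0.423 and 3.25 CPM in EEDcKO. Both pairs of groups overlapped, with log2 fold changes of 2.08 (SE 0.70) and 2.45 (SE 1.06). A library with 0 counts can hide up to 3, which here corresponds to at most 1.84 CPM in mTEChi EEDcKO, and such limits cover counting error only. Dio3 had 0 counts in all 3 libraries of mTEChi AireKO and all 3 of mTEChi AireEEDdKO, so no fold is given between them. Dio3 passed the filter on low counts through EEDcKO libraries in the neonatal table. In the adult table it passed through mTEChi WT alone, with means of 5.20 CPM there, 0.18 in mTEClo WT and 0 in both AireKO groups. Its p-values against these groups are therefore not independent of the filter.

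Begain (chr12:109032187-109068217), a postsynaptic scaffold-associated protein at the far end of the domain, was at 2.79, 2.86, 1.09, 1.83 and 0.697 CPM in mTEChi Ctrl and at 9.83, 8.46 and 6.55 CPM in mTEChi EEDcKO. In mTEClo it was at 7.37, 5.22 and 7.81 CPM in Ctrl and at 12.4, 15.7, 26.9 and 16.8 CPM in EEDcKO. The groups did not overlap, with log2 fold changes of 2.29 (SE 0.38) and 1.42 (SE 0.34). In mTEClo AireEEDdKO it was at 16.3, 15.9 and 17.2 CPM, above every Ctrl library of that fraction.

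Set side by side, the fitted log2 fold changes of the 7 members ran from 1.06 (Mirg) to 3.27 (Meg3) in mTEChi EEDcKO and from 1.42 (Begain) to 3.24 (Meg3) in mTEClo EEDcKO. In mTEChi AireEEDdKO against AireKO they ran from 1.62 (Begain) to 5.64 (Dlk1) for the 6 members with counts, and in mTEClo AireEEDdKO against Ctrl from 1.28 (Begain) to 4.02 (Mirg). The domain was chosen on these comparisons, so the values are a description with no test. Leaving out 1 library at a time, Mirg in mTEChi EEDcKO ran from 0.63 to 1.54, and every other fitted value stayed above 1 except that of Dio3 between mTEChi AireEEDdKO and AireKO, both at 0 counts. The value of Begain in mTEClo AireEEDdKO fell to 0.64 with age as a term. Ages also differed between the groups, since mTEClo Ctrl mice were 1 to 3 days old and mTEClo AireEEDdKO mice 4 to 6 days old.

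**Figure D2:**
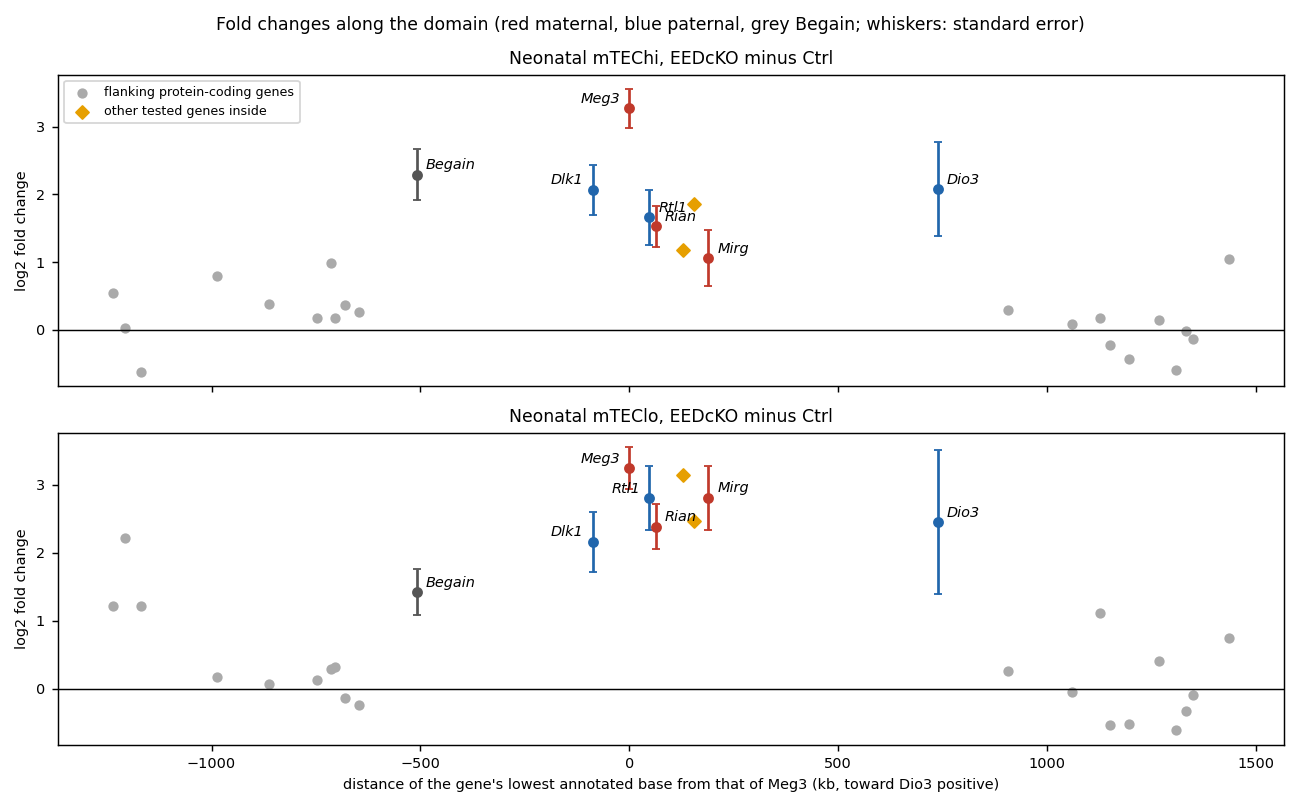
Log2 fold changes of EEDcKO minus Ctrl (y axis) against the distance of each gene from Meg3 in kb (x axis), for the 7 members, the other tested genes inside the domain and 10 protein-coding genes on each side, in mTEChi and mTEClo; whiskers are standard errors. All 7 members, which were chosen on such comparisons and not tested, lie above 1.00 in both fractions. The 20 flanking genes had a median of 0.18 in mTEChi and 0.16 in mTEClo. By a test, which the members did not have, 1 of 20 flanking genes in mTEChi and 3 of 20 in mTEClo were called higher.

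Flanking genes give the surroundings of the domain. They and all other genes outside the members were called when the adjusted p was under 0.05 and the change at least 2-fold in edgeR's quasi-likelihood test. Of the 10 nearest protein-coding genes on each side, 1 of 20 was called higher in mTEChi EEDcKO (Ankrd9, 1.05, SE 0.35, edgeR adjusted p 0.027), beside 8.48% of all genes called higher and 5.4% called lower among 20196 tested. In mTEClo EEDcKO 3 of 20 were called higher, beside 9.51% of all genes called higher and 6.22% called lower, and none was called lower in either fraction. The 3 were Cyp46a1 (2.21, SE 0.54, edgeR adjusted p 0.0033), Eml1 (1.21, SE 0.26, edgeR adjusted p 0.0013) and 1700001K19Rik (1.11, SE 0.37, edgeR adjusted p 0.024). The median log2 fold change of the 20 was 0.18 in mTEChi and 0.16 in mTEClo, beside 0.00 and -0.01 over all genes tested. In mTEChi AireEEDdKO against AireKO 1 of 20 (Eml1, 1.23, SE 0.40, edgeR adjusted p 0.034) was called higher, beside 6.69% of all genes called higher and 2.78% called lower. In mTEClo AireEEDdKO against Ctrl 3 of 20 were called higher (Hhipl1, 1.72, SE 0.49, edgeR adjusted p 0.0076; Ankrd9, 1.41, SE 0.39, edgeR adjusted p 0.0067; Cyp46a1, 1.56, SE 0.57, edgeR adjusted p 0.035), beside 12.4% of all genes called higher and 8.2% called lower.

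Between the outermost members the annotation holds 115 other genes, 69 of them microRNA precursors and 23 small nucleolar RNAs, and 113 of the 115 were listed in the tables. Only B830012L14Rik and Gm37899, 2 noncoding transcripts between Rian and Mirg, had enough counts to be tested. Their values in the comparisons that vary EED are given without a test too. B830012L14Rik went from 5.79 ± 2.61 CPM (n = 5) in mTEChi Ctrl to 19.9 ± 6.84 (n = 3) in EEDcKO (log2 fold change 1.86, SE 0.43) and from 8.08 ± 3.67 (n = 3) in mTEClo Ctrl to 43.4 ± 13.9 (n = 4) in EEDcKO (log2 fold change 2.46, SE 0.44). The log2 fold change of Gm37899 was 1.18 (SE 0.44) in mTEChi EEDcKO and 3.14 (SE 0.48) in mTEClo EEDcKO.

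Reads also fell on the microRNA precursors, where they count long primary transcripts and not mature microRNAs. Summed over the 69 precursor genes, they came to 0 to 11 counts per mTEChi Ctrl library, while EEDcKO had 6 to 41 and AireEEDdKO 34 to 102 counts. In mTEClo, Ctrl libraries had 4 to 5 such counts, EEDcKO libraries 53 to 77 and AireEEDdKO libraries 112 to 154. As CPM, the mTEClo means were 1.88 ± 0.305 (n = 3), 18.2 ± 4.88 (n = 4) and 32.0 ± 8.07 (n = 3), and no mTEClo library without EED overlapped with Ctrl. The other named genes inside the domain stayed near the floor: Dio3os, the transcript opposite to Dio3, had at most 12 counts in any library, Mir3070a at most 12 and Gm24564 at most 16.

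Markers of other cells were read beside these results. Of 8 mesenchyme markers, 3 of the 8 were called higher in mTEChi EEDcKO (Pdgfra, Col1a1 and Col1a2) and 6 in mTEClo EEDcKO (with Col3a1, Dcn and Lum), with median log2 fold changes of 0.14 and 3.01. Their summed level per library was 467 to 669 CPM in mTEChi Ctrl and 734 to 1067 in mTEChi EEDcKO, and 332 to 347 CPM in mTEClo Ctrl and 643 to 966 in mTEClo EEDcKO, with no defining marker at 0 in these groups. Of 6 markers of cortical epithelium, 5 were called lower in mTEClo EEDcKO, with sums of 1630 to 2513 CPM in Ctrl and 247 to 824 in EEDcKO. No marker of thymocytes (7 tested), myeloid cells (6) or endothelium (5) was called higher in either fraction. In mTEChi EEDcKO 3 myeloid, 1 thymocyte and 1 endothelial marker were called lower, and in mTEClo EEDcKO 1 myeloid and 1 endothelial marker. Of 8 muscle markers 2 rose and 1 fell in mTEChi EEDcKO, and 3 rose and 2 fell in mTEClo EEDcKO. Their sums were 2448 to 4793 CPM in mTEChi Ctrl and 1002 to 2578 in mTEChi EEDcKO, which overlapped. In mTEClo the sums were lower in EEDcKO with no overlap, at 421 to 979 CPM beside 1069 to 1901 in Ctrl. Of 7 tested neuroendocrine markers none was called in mTEChi, and 2 rose and 1 fell in mTEClo.

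In the comparisons with Aire absent, mesenchyme markers were called higher for 3 of 8 in mTEChi AireEEDdKO against AireKO (Pdgfra, Col1a2 and Col3a1, median 2.02 on the log2 scale) and for 6 of 8 in mTEClo AireEEDdKO against Ctrl (median 2.74). Their sums were 558 to 778 CPM in mTEChi AireKO and 655 to 961 in mTEChi AireEEDdKO, which overlapped, and 711 to 1248 in mTEClo AireEEDdKO, above all mTEClo Ctrl libraries. Muscle markers were called higher for 6 of 8 in each of these comparisons (medians 1.42 and 2.37), with sums of 4947 to 7541 CPM in mTEChi AireKO and 4099 to 7595 in mTEChi AireEEDdKO. In mTEClo their sums were 1069 to 1901 CPM in Ctrl and 2073 to 3061 in AireEEDdKO, with no overlap. Of the 6 cortical markers, 4 were called lower in mTEClo AireEEDdKO and 1 higher in mTEChi AireEEDdKO (Enpep). Dlk1 and Meg3 are known to be expressed in mesenchyme, and the part of any of these markers in the values of the members was not tested.

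Dlk1 fell with loss of Aire in neonatal mTEChi with EED present. By the same rule for a call, 2 of the 7 members were called lower and none higher, beside 3.56% of all genes called higher and 12.8% called lower. The 2 were Dlk1 and Rtl1. Dlk1 was at 21.8, 22.3, 17.5, 21.5 and 29.3 CPM in Ctrl and at 2.72, 0 and 1.401 CPM in AireKO, with counts of 4, 0 and 5 (-3.99, SE 0.72, edgeR adjusted p 0.00031). Every AireKO library was below every Ctrl library. Rtl1 was at 3.397, 0 and 2.52 CPM in AireKO, again below all Ctrl libraries (-1.81, SE 0.66, edgeR adjusted p 0.043). This call was lost without any 1 of Ctrl replicates 3, 4 and 5 or of the 3 AireKO libraries, where the adjusted p reached 0.14, with the replicate number as a block (-1.64, edgeR adjusted p 0.083) and with age or sex as a term.

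Dio3 had 25 counts over the 5 Ctrl libraries and 0 over the 3 AireKO libraries, which makes it at least 3.54-fold lower when 3 counts over the AireKO group are taken as the floor. Its adjusted p was 0.06 in edgeR, and it was called with no filter on low counts, with sex as a term and by DESeq2. Of the maternally expressed genes, Meg3 (-0.29, SE 0.39, edgeR adjusted p 0.62) and Mirg (-0.37, SE 0.53, edgeR adjusted p 0.63) overlapped between the groups. Rian was at 19.7, 9.56 and 13.7 CPM in AireKO, below every Ctrl library, but just missed the threshold (-0.99, SE 0.39, edgeR adjusted p 0.056) and was called without Ctrl replicate 4 and in 7 of the alternative fits, age as a term among them. Begain did not pass either (-0.85, SE 0.61, edgeR adjusted p 0.37). With scaling by library size alone, the median over all tested genes moved from 0.035 to -0.174 on the log2 scale in this comparison, and the share of called genes that were higher from 21.7% to 10.7%. Mesenchyme markers moved in both directions here, with 4 of 8 called lower (Pdgfra, Col1a1, Col1a2 and Col3a1) and 2 higher (Dcn and Lum), and summed levels of 558 to 778 CPM in AireKO beside 467 to 669 in Ctrl. Of the 8 markers, Pdgfra was at 0 in all AireKO libraries. Myeloid markers were lower for 3 of 6, endothelial markers for 2 of 5 tested and neuroendocrine markers for 2 of 7 tested with 1 higher. Summed muscle markers were 2448 to 4793 CPM in Ctrl and 4947 to 7541 in AireKO with no overlap, although 1 of 8 was called lower (Actc1) and none higher. The part of these markers in the result was not tested.

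With EED absent, loss of Aire went with higher levels of the maternally expressed genes in mTEChi. Against EEDcKO, 4 members were called higher in AireEEDdKO (Meg3, Rian, Mirg and Rtl1) and 2 lower (Begain and Dio3), beside 4.99% of all genes called higher and 8.36% called lower. Rian was at 125, 77.01 and 49.3 CPM in EEDcKO and 564, 318 and 258 CPM in AireEEDdKO (2.21, SE 0.33, edgeR adjusted p 7.7e-05). Mirg was at 19.04, 11.7 and 3.12 CPM and 75.3, 41.2 and 41.04 CPM (2.30, SE 0.41, edgeR adjusted p 0.00041). Meg3 rose by less (1.48, SE 0.29, edgeR adjusted p 0.001). All 3 AireEEDdKO libraries were above all 3 EEDcKO libraries for these 3 genes, as they were for 16.4% of all genes. Rtl1 overlapped by 1 library (1.55, SE 0.42, edgeR adjusted p 0.01) and lost its call without EEDcKO replicate 3 or AireEEDdKO replicate 1, with age as a term (1.26, edgeR adjusted p 0.077) and with only the compared groups in the fit.

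Dlk1 was not called in this comparison. It was at 103, 56.2 and 128 CPM in mTEChi EEDcKO and at 116, 53.9 and 45.8 CPM in mTEChi AireEEDdKO, and the groups overlapped (-0.42, SE 0.40, edgeR adjusted p 0.48), but it was called lower with age as a term (-1.12, edgeR adjusted p 0.024). Dio3 had 74 counts in EEDcKO, none of them in replicate 1, and 0 in AireEEDdKO, at least 17.2-fold lower by the same floor (edgeR adjusted p 0.0043). This p-value is not independent of the filter, which Dio3 passed through EEDcKO libraries. Begain was at 9.83, 8.46 and 6.55 CPM and 2.92, 1.72 and 3.50 CPM (-1.52, SE 0.43, edgeR adjusted p 0.014), with its call lost without AireEEDdKO replicate 2. Both noncoding transcripts inside the domain were called higher too, Gm37899 (2.43, SE 0.41, edgeR adjusted p 0.00028) and B830012L14Rik (2.06, SE 0.41, edgeR adjusted p 0.0011). Summed muscle markers were 1002 to 2578 CPM in mTEChi EEDcKO and 4099 to 7595 in mTEChi AireEEDdKO with no overlap, and 1 of 8 was called higher (Ttn). Of 6 cortical markers 2 were called higher (Ccl25 and Tbata), and of 8 mesenchyme markers 2 were higher (Dcn and Lum) and 1 lower (Col1a1). AireEEDdKO mice were 4 to 6 days old where EEDcKO mice were 1 to 6 days old, and the part of markers and age in the result was not tested.

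In mTEClo without EED, 2 members were called higher in AireEEDdKO than in EEDcKO, Dlk1 and Mirg, and none lower, beside 3.45% of all genes called higher and 1.85% called lower. Dlk1 was at 19.04, 60.9, 62.8 and 95.9 CPM in EEDcKO and 198, 109 and 179 CPM in AireEEDdKO (1.43, SE 0.36, edgeR adjusted p 0.015). Mirg was at 29.1, 23.5, 16.1 and 24.03 CPM and 61.95, 29.9 and 67.97 CPM (1.21, SE 0.34, edgeR adjusted p 0.028). Neither pair of groups overlapped. The call of Dlk1 was lost without AireEEDdKO replicate 1, and that of Mirg without AireEEDdKO replicate 1 or 3 or EEDcKO replicate 2 or 3, with the replicate block (1.21, edgeR adjusted p 0.062) and with age or sex as a term. With only the compared groups in the fit neither was called. Meg3 (0.20, SE 0.26, edgeR adjusted p 0.7), Rian (0.35, SE 0.29, edgeR adjusted p 0.51) and Rtl1 (0.54, SE 0.36, edgeR adjusted p 0.39) did not pass. Of 8 muscle markers 7 were called higher in this comparison, with sums of 421 to 979 CPM in EEDcKO and 2073 to 3061 in AireEEDdKO, and their part in the result was not tested.

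**Figure D3:**
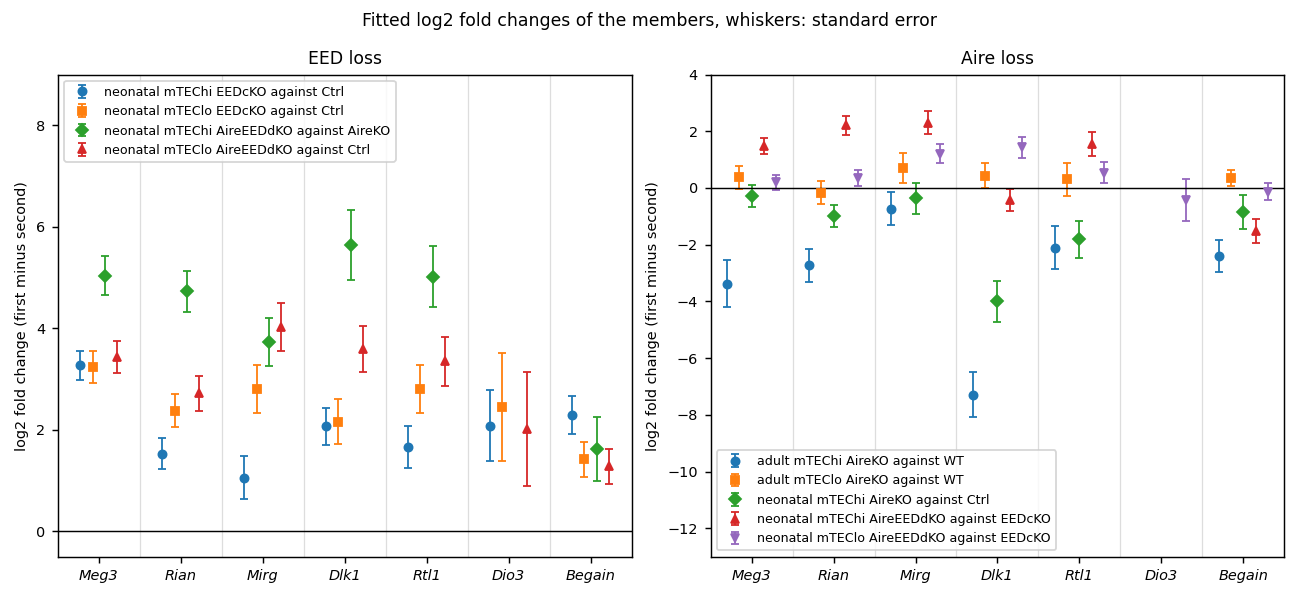
Fitted log2 fold changes (y axis) of the 7 members (x axis) in 4 comparisons that vary EED (left) and 5 that vary Aire (right); whiskers are standard errors, and values against a group with 0 counts are not drawn. With EED present, Dlk1 was lower in AireKO than in WT or Ctrl in adult and neonatal mTEChi (-7.29 and -3.99). Without EED, loss of Aire went with higher Meg3, Rian and Mirg in mTEChi.

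In adult mTEChi, loss of Aire went with lower levels of nearly the whole domain: 6 of 7 members were called lower (all but Mirg) and none higher, beside 5.09% of all genes called higher and 18.3% called lower among 19310 tested. For the same 6 members all AireKO libraries were below all WT libraries, as they were for 20.8% of all genes. Dlk1 was at 16.9 to 52.4 CPM (median 37.5) in the WT libraries and at 0.428, 0.395, 0 and 0 CPM in the 4 AireKO libraries (-7.29, SE 0.80, edgeR adjusted p 1.6e-08). AireKO held 2 counts of Dlk1 in all against 727 in WT, a ratio of pooled levels of 201 with an exact 95% counting interval of 55.4 to 1660. Dio3 had 100 counts in WT, at 3.61 to 8.84 CPM (median 4.61), and 0 in AireKO, at least 18.4-fold lower with 3 counts over the group as the floor (edgeR adjusted p 1.2e-06). Dio3 passed the filter only through this WT group, so its p-value and its place among the 6 are not independent of the filter. Rtl1 was at 3.04 to 10.8 CPM (median 5.62) in WT and 1.71, 1.19, 0.665 and 2.43 CPM in AireKO (-2.10, SE 0.75, edgeR adjusted p 0.019), a call lost without AireKO replicate 3, with the replicate block (-1.68, edgeR adjusted p 0.056) and with age as a term (-1.82, edgeR adjusted p 0.067), where AireKO mice were 5 to 6 and WT mice 4 to 5 weeks old.

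Meg3 and Rian fell in the same comparison. Meg3 was at 8.12 to 20.4 CPM (median 13.2) in WT and at 3.43, 0, 0.333 and 1.62 CPM in AireKO (-3.38, SE 0.83, edgeR adjusted p 0.0011). Rian was at 17.01 to 36.3 CPM (median 25.1) and 2.57, 1.98, 3.66 and 7.30 CPM (-2.73, SE 0.59, edgeR adjusted p 0.0003). Mirg overlapped between the groups, with 3.12 to 6.72 CPM (median 5.74) in WT and 2.14, 0.790, 5.99 and 3.65 CPM in AireKO (-0.73, SE 0.59, edgeR adjusted p 0.3). Begain was below WT in all 4 AireKO libraries, at 0.857, 0, 0.333 and 0.406 CPM (-2.40, SE 0.56, edgeR adjusted p 0.00068). The age classes were not fitted together, so whether the adult and neonatal effects differ was not tested. Of 10 flanking genes on the Begain side 3 were called lower (Hhipl1, Cyp46a1 and Eml1), with a median log2 fold change of -0.08 beside -0.05 over all genes, and of 10 on the Dio3 side 1 was called higher (Tecpr2), with a median of 0.30.

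Markers of other cells also moved in adult mTEChi AireKO. Of 8 mesenchyme markers 4 were called lower (Pdgfra, Col1a1, Col1a2 and Col3a1) and 1 higher (Dcn), while their sum was 414 to 564 CPM in WT and 431 to 549 in AireKO, and none was at 0 in a whole group. Thymocyte markers were lower for 5 of 6 tested (median -1.61), with sums of 82.4 to 118 CPM in WT and 42.6 to 56.1 in AireKO. Neuroendocrine markers were lower for 5 of 8 (median -1.64), with Scg2 at 0 in all AireKO libraries, while their sums overlapped, at 193 to 279 and 216 to 295 CPM. Myeloid markers were lower for 3 of 6 and higher for 1 (median -1.53), with sums of 273 to 344 CPM in WT and 345 to 396 in AireKO. Muscle markers were lower for 3 of 7 tested and higher for 1, with sums of 2208 to 3133 and 1357 to 1932 CPM. The part of these markers in the fall of the domain was not tested. All 4 AireKO libraries were those without mitochondrial counts.

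In adult mTEClo no member was called in edgeR's test, none had an unadjusted p under 0.05 and DESeq2 called 0, beside 4.61% of all genes called higher and 3.7% called lower. Meg3 was at 6.32 to 56.3 CPM (median 41.3) in WT and 113, 34.9, 26.7 and 16.7 CPM in AireKO (0.38, SE 0.41, edgeR adjusted p 0.53). Dlk1 was at 2.33 to 14.9 CPM (median 9.04) and 29.4, 3.11, 10.8 and 4.66 CPM (0.44, SE 0.43, edgeR adjusted p 0.49). AireKO replicate 1 was the highest library of both genes and, without it, Meg3 and Dlk1 turned to -0.49 and -0.34. Dio3 had 3 counts in the 8 WT libraries and 0 in AireKO, so no fold is given. Cortical and muscle markers were called higher for 3 of 6 and 3 of 7 tested in this comparison.

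The effect of Aire loss differed between the adult fractions for 4 members, tested as the mTEChi effect minus the mTEClo effect. These were Dlk1 (-7.73, SE 0.99, edgeR adjusted p 1.4e-06), Meg3 (-3.76, SE 0.94, edgeR adjusted p 0.0037), Begain (-2.76, SE 0.63, edgeR adjusted p 0.0018) and Rian (-2.56, SE 0.72, edgeR adjusted p 0.0097), beside 2.23% of all genes called higher and 11.6% called lower. Rtl1 had the same sign but did not pass (-2.41, SE 0.96, edgeR adjusted p 0.067), except without mTEClo WT replicate 5 or mTEClo AireKO replicate 4, with no filter on low counts and by DESeq2. Mirg did not pass (-1.42, SE 0.79, edgeR adjusted p 0.2). Of the markers, 5 of 7 tested for muscle and 4 of 8 for mesenchyme were called lower by this test, and their part was not tested. The difference in mitochondrial counts lies between mTEChi genotypes in full and between mTEClo genotypes in part, and cannot be told apart from this effect.

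**Figure D4:**
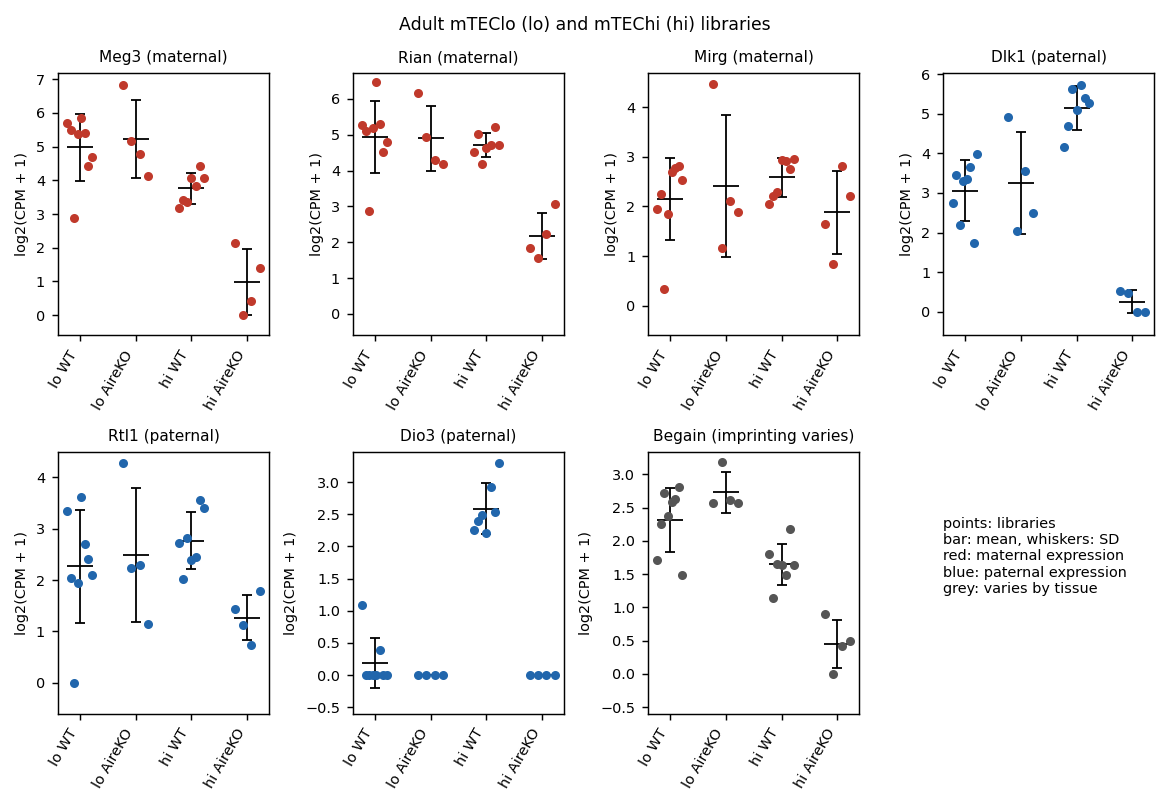
Levels of the 7 members in each adult library, as log2(CPM + 1) on the y axis, for mTEClo (lo) and mTEChi (hi) of WT and AireKO mice on the x axis; points are libraries, bars are means and whiskers are SD. In mTEChi the 4 AireKO libraries lie below all 7 WT libraries for each member but Mirg, while in mTEClo the genotypes overlap for every member.

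Fractions were compared next, as mTEChi against mTEClo. Markers of other cells differed between the sorted fractions, and their part in the results that follow was not tested. In adult WT mTEChi 6 of 6 myeloid markers (median log2 fold change 2.60), 5 of 6 tested thymocyte markers (2.18) and 3 of 6 cortical markers (1.46) were called higher. Their sums were 273 to 344, 82.4 to 118 and 682 to 821 CPM in mTEChi and 37.9 to 67.4, 28.4 to 39.9 and 228 to 289 CPM in mTEClo. In neonatal Ctrl mTEChi 4 of 8 mesenchyme, 3 of 6 myeloid and 3 of 7 tested thymocyte markers were called higher and 3 of 6 cortical markers lower, and in EEDcKO mTEChi 3 of 8 mesenchyme markers were called higher and 3 lower. Of the same 8, adult AireKO mTEChi had 2 higher and 3 lower, and AireEEDdKO mTEChi 1 higher and 3 lower. In adult WT, Dlk1 and Dio3 were called higher in mTEChi and Meg3 lower, beside 23.8% of all genes called higher and 12.3% called lower. Dlk1 had 36.4 ± 12.6 (SD, n = 7) CPM in mTEChi and 8.27 ± 4.21 (SD, n = 8) in mTEClo (2.16, SE 0.32, edgeR adjusted p 8.1e-07), with no overlap. Dio3 was found in all 7 mTEChi libraries and in 2 of 8 mTEClo libraries, 100 counts against 3, a ratio of pooled levels of 44.2 with a counting interval of 14.7 to 218 (edgeR adjusted p 9.1e-09). This p-value is not independent of the filter, which Dio3 passed through mTEChi WT. Meg3 had 13.2 ± 4.45 (SD, n = 7) CPM in mTEChi and 35.7 ± 16.9 (SD, n = 8) in mTEClo (-1.36, SE 0.39, edgeR adjusted p 0.0026), where mTEClo replicate 3 alone, at 6.32 CPM, was below all mTEChi libraries. Rian (-0.48, SE 0.34, edgeR adjusted p 0.21), Rtl1 (0.40, SE 0.47, edgeR adjusted p 0.45) and Mirg (0.45, SE 0.45, edgeR adjusted p 0.37) did not pass. Begain missed only the 2-fold limit (-0.94, SE 0.28, edgeR adjusted p 0.0037) and was called without mTEClo WT replicate 1 or 8 or mTEChi WT replicate 6, with the replicate block (-1.07, edgeR adjusted p 0.002) and with sex as a term (-1.02, edgeR adjusted p 0.0024).

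Without Aire the direction of Dlk1 turned in the adult. In AireKO, 5 members were called lower in mTEChi than in mTEClo and none higher, beside 17.8% of all genes called higher and 17.5% called lower. These were Dlk1 (-5.57, SE 1.01, edgeR adjusted p 2.4e-05), Meg3 (-5.12, SE 0.77, edgeR adjusted p 1.7e-06), Begain (-3.70, SE 0.52, edgeR adjusted p 5.5e-07), Rian (-3.04, SE 0.62, edgeR adjusted p 0.00013) and Rtl1 (-2.01, SE 0.83, edgeR adjusted p 0.041). The call of Rtl1 was lost without mTEClo replicate 1 or without any 1 of mTEChi replicates 1, 2 and 3. Same-numbered libraries deviated together here, and with the replicate number as a block no member gained or lost its call. Mirg did not pass (-0.97, SE 0.65, edgeR adjusted p 0.2).

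In neonatal Ctrl, Meg3 and Begain were called lower in mTEChi than in mTEClo and no member was called higher, beside 13.8% of all genes called higher and 6.92% called lower. Meg3 had 13.2 ± 3.94 (SD, n = 5) CPM in mTEChi and 34.4 ± 5.08 (SD, n = 3) in mTEClo (-1.37, SE 0.32, edgeR adjusted p 0.0022). Begain had 1.85 ± 0.977 and 6.80 ± 1.39 CPM (-2.02, SE 0.40, edgeR adjusted p 0.00059). Dlk1 was higher in every mTEChi library than in any mTEClo library but did not pass (0.75, SE 0.45, edgeR adjusted p 0.19). Dio3 (1.55, SE 1.12, edgeR adjusted p 0.28), Rian (-0.39, SE 0.33, edgeR adjusted p 0.35), Mirg (0.63, SE 0.52, edgeR adjusted p 0.35) and Rtl1 (0.24, SE 0.50, edgeR adjusted p 0.73) did not pass either.

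Without EED, the 3 maternally expressed genes and Begain were called lower in mTEChi than in mTEClo, and none higher, beside 14.2% of all genes called higher and 7.67% called lower. These were Meg3 (-1.34, SE 0.28, edgeR adjusted p 0.00062), Rian (-1.24, SE 0.31, edgeR adjusted p 0.0029), Mirg (-1.12, SE 0.39, edgeR adjusted p 0.027) and Begain (-1.14, SE 0.33, edgeR adjusted p 0.0083). Without mTEChi EEDcKO replicate 3 only 2 calls were made, and without mTEChi EEDcKO replicate 1 there were 6. The call of Begain was lost with age as a term, and that of Mirg with only the compared groups in the fit. The paternally expressed genes did not pass, with Dlk1 at 0.66, SE 0.37, edgeR adjusted p 0.16. In AireEEDdKO the maternally expressed genes did not differ beyond their spread, Meg3 by -0.06, SE 0.28, edgeR adjusted p 0.89, Rian by 0.62, SE 0.31, edgeR adjusted p 0.12 and Mirg by -0.03, SE 0.36, edgeR adjusted p 0.97. There Begain (-2.53, SE 0.41, edgeR adjusted p 6e-05) and Dlk1 (-1.19, SE 0.40, edgeR adjusted p 0.021) were called lower in mTEChi, beside 10.4% of all genes called higher and 10.6% called lower. Dio3 had 0 counts in mTEChi and 28 in mTEClo, at least 4.94-fold lower (edgeR adjusted p 0.027). The calls of Dlk1 and Dio3 were each lost in 4 of 6 fits that left out 1 library, Dlk1 without replicate 2 or 3 of mTEChi or 1 or 3 of mTEClo and Dio3 without any replicate of mTEChi or replicate 3 of mTEClo. Whether the difference between fractions itself differs between genotypes was not tested in the neonatal table.

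The parental classes were then set side by side by summing CPM of Meg3, Rian and Mirg and of Dlk1, Rtl1 and Dio3 in each library. These sums are not per length, so the ratio of maternal to paternal sum is compared across groups only, as a description. In adult WT the ratio was 0.993 ± 0.316 (SD, n = 7) in mTEChi and 5.61 ± 1.597 (n = 8) in mTEClo, and the highest mTEChi value, 1.40, was below the lowest mTEClo value, 3.08. Neonatal Ctrl showed the same order, with 1.54 ± 0.347 (n = 5) in mTEChi and 3.67 ± 0.288 (n = 3) in mTEClo. Adult AireKO had 6.43 ± 5.88 (n = 4) in mTEChi, on few counts, and 5.86 ± 2.79 (n = 4) in mTEClo.

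With loss of EED both sums were higher and the ratio moved less than either. In mTEChi the maternal sum was 46.9 ± 8.53 CPM in Ctrl and 224 ± 64.3 in EEDcKO, the paternal sum 31.1 ± 5.71 and 127 ± 30.7, and the ratio was 1.83 ± 0.545 (n = 3) in EEDcKO, overlapping with Ctrl. In mTEClo the maternal sum was 75.4 ± 14.01 CPM in Ctrl and 544 ± 115 in EEDcKO. The ratio there was 8.65, 5.25, 4.26 and 3.45 in EEDcKO beside 3.34 to 3.87 in Ctrl, with means of 5.40 and 3.67. Only replicate 4 of EEDcKO lay within the Ctrl values, and the others lay above them. Libraries lacking Aire differed in mTEChi. In mTEChi AireKO the paternal sum was 3.35 ± 3.098 CPM, with 0 counts in replicate 2, and the ratio was 6.00 and 7.79 in the other 2 libraries. In mTEChi AireEEDdKO the maternal sum reached 793 ± 338 CPM and the ratio was 5.85 ± 0.799 (n = 3), above all mTEChi Ctrl and EEDcKO libraries. In mTEClo AireEEDdKO it was 2.92 ± 0.119 (n = 3), below all mTEClo Ctrl and EEDcKO libraries.

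**Figure D5:**
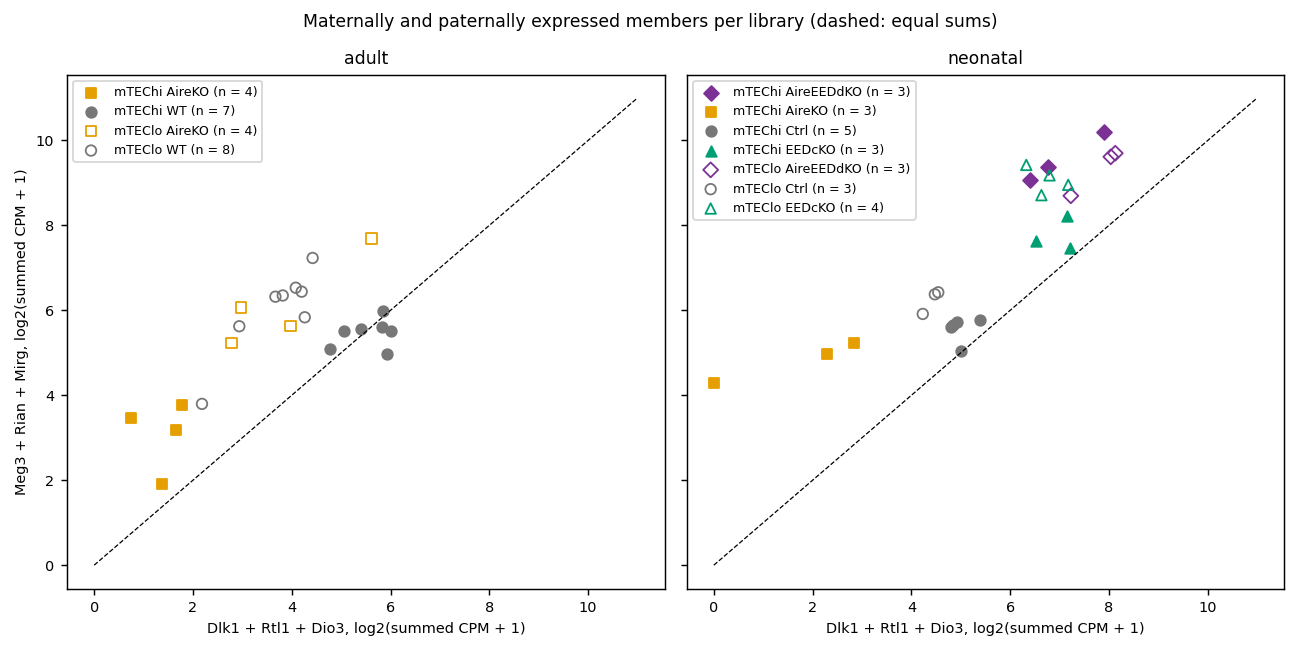
Summed level of the maternally expressed members (y axis) against that of the paternally expressed members (x axis), both as log2(summed CPM + 1), for each adult (left) and neonatal (right) library; filled marks are mTEChi, open marks mTEClo, and the dashed line marks equal sums. The adult mTEChi WT libraries lie on both sides of the line, and the libraries of all other groups lie above it. The sums are not per length, so the line is a guide for comparing groups only.

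Levels of different genes were compared per kb of exon. In neonatal mTEChi Ctrl, Dlk1 was the highest member, at 3.97 ± 0.754 CPM per kb (SD, n = 5), followed by Rian at 1.58 ± 0.284 and Rtl1 at 1.12 ± 0.353. Dio3, Meg3 and Mirg came next, at 0.749 ± 0.269, 0.729 ± 0.218 and 0.683 ± 0.122, and did not differ beyond their spread, and Begain was at 0.421 ± 0.222. In mTEClo EEDcKO the order was led by Meg3, at 18.03 ± 3.75 CPM per kb (SD, n = 4). Rian, at 10.7 ± 2.43, and Dlk1, at 10.5 ± 5.56, followed within their spread, then Rtl1 at 7.06 ± 1.26, Begain at 4.06 ± 1.42, Mirg at 3.18 ± 0.734 and Dio3 at 1.55 ± 1.06. In mTEChi EEDcKO, by contrast, Dlk1 led at 16.9 ± 6.401 CPM per kb (n = 3), before Meg3 at 7.14 ± 1.23, and in mTEChi AireEEDdKO Rian, at 20.9 ± 8.89, and Meg3, at 19.9 ± 8.63, did not differ beyond their spread. In adult mTEChi WT, Dlk1, at 6.44 ± 2.23, and Dio3, at 2.56 ± 0.927 CPM per kb (n = 7), stood above Rian, at 1.42 ± 0.348.

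The genes whose levels were most like those of Meg3 were found by Pearson's r of log2 CPM over libraries, ranked over all tested genes, and non-members were named where their mean was at least 10 CPM. Over the 24 neonatal libraries the first was Rian (r 0.960), followed by Zfhx4 (0.954), Sox5 (0.951), Plekhg5 (0.948), Tcn2 (0.947) and Lrp3 (0.946), all on other chromosomes. B830012L14Rik (0.943) was in place 8, Rtl1 (0.932) in place 13 and Gm37899 (0.925) in place 23, while Mirg (0.860), Dlk1 (0.783), Begain (0.719) and Dio3 (0.255) came later. Over the 23 adult libraries the first were Aldh1l1 (0.916), Rian (0.909), Krt19 (0.907), Vwa2 (0.901) and Wwc1 (0.896), with Dlk1 at 0.594 and Dio3 at 0.006. These libraries share their groups and the values describe no independent replicates.

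Pathways to which members belong were read from lists of their textbook genes, chosen with earlier results of these data known. Of 15 Notch pathway genes, among which Dlk1 is known to act, 6 were called higher in mTEChi EEDcKO, where 8.48% of all genes were, and none lower, with a median log2 fold change of 0.71 beside 0.00 over all genes. Heyl, a target gene of Notch, was higher (1.80, SE 0.28, edgeR adjusted p 4.8e-05), and the receptors Notch1 (1.56, SE 0.13, edgeR adjusted p 7.5e-08) and Notch3 (1.67, SE 0.23, edgeR adjusted p 1.8e-05) were higher too. In mTEClo EEDcKO 5 of 15 were called higher, beside 9.51% of all genes, among them Notch3 (2.73, SE 0.27, edgeR adjusted p 1.6e-07) and Heyl (1.95, SE 0.32, edgeR adjusted p 9.2e-05). There 1 was called lower, the ligand Dll4 (-2.80, SE 0.46, edgeR adjusted p 9.1e-05), and the median was 0.59. In adult mTEChi AireKO 3 of 14 tested genes were called lower, Notch3, Dll1 and Heyl (-1.07, SE 0.16, edgeR adjusted p 3.9e-06), a share near the 18.3% of all genes called lower, and the median was -0.02 beside -0.05 over all genes.

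Of 8 genes of thyroid hormone handling, the pathway of Dio3, 1 was called higher in both fractions of EEDcKO, the receptor Thra (1.34, SE 0.29, edgeR adjusted p 0.0012 in mTEChi and 1.14, SE 0.27, edgeR adjusted p 0.003 in mTEClo). In each fraction 2 were called lower, Slco1c1 in both, Dio2 in mTEChi (-1.44, SE 0.43, edgeR adjusted p 0.013) and Dio1 in mTEClo (-1.51, SE 0.40, edgeR adjusted p 0.0066). Of all genes, 8.48% were called higher and 5.4% lower in mTEChi, and 9.51% and 6.22% in mTEClo. The medians of the list were -0.34 in mTEChi and 0.38 in mTEClo, beside 0.00 and -0.01 over all genes. In neonatal mTEChi AireKO 3 of 8 were called lower and none higher, beside 12.8% of all genes called lower, among them Dio2, the enzyme that activates thyroid hormone (-3.09, SE 0.58, edgeR adjusted p 0.00045). Adult mTEChi AireKO had 2 of 8 lower, Dio2 (-3.54, SE 0.60, edgeR adjusted p 1.5e-05) and Slco1c1, beside 18.3% of all genes. Both medians were 0.10, beside 0.03 and -0.05 over all genes.

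Regulators of imprints and of Polycomb were read last. Of 20 such genes, 1 was called higher in each fraction of EEDcKO, Aff3, a member of the elongation factor family of AF4 (1.18, SE 0.22, edgeR adjusted p 0.00038 in mTEChi and 2.60, SE 0.26, edgeR adjusted p 2.3e-07 in mTEClo). In mTEChi EEDcKO 2 were called lower, Eed and Dppa3 (-1.54, SE 0.55, edgeR adjusted p 0.035). In mTEClo EEDcKO 2 were called lower, Dppa3 and Dnmt3l (-2.02, SE 0.67, edgeR adjusted p 0.026). Over all genes, 8.48% were called higher and 5.4% lower in mTEChi EEDcKO, and 9.51% and 6.22% in mTEClo EEDcKO. In mTEChi AireKO, with EED present, Zfp57, the factor that protects methylated imprints, was called lower in the neonate (-2.24, SE 0.52, edgeR adjusted p 0.0028) and in the adult (-3.82, SE 0.67, edgeR adjusted p 2.4e-05), where its mean was 0.182 CPM in AireKO and 3.22 in WT. Between mTEChi AireEEDdKO and EEDcKO only Aff3 of the list was called, lower, beside 8.36% of all genes. In mTEChi AireEEDdKO against AireKO, Zfp57 and Aff3 were called higher, beside 6.69% of all genes. Uhrf1, Ezh2 and Eed were called lower there, beside 2.78% of all genes. Adult mTEChi AireKO had 6 of the 20 called lower and 2 higher, with Aff3 among the lower (-2.53, SE 0.32, edgeR adjusted p 1.7e-07), beside 18.3% of all genes called lower. Neonatal mTEChi AireKO had 3 of 20 lower, near the 12.8% of all genes, and none higher. The medians of the list were -0.30 in the adult and 0.21 in the neonate, beside -0.05 and 0.03 over all genes, and -0.20 in mTEChi EEDcKO and -0.30 in mTEClo EEDcKO.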

How the data were processed

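Whole-number gene counts of 47 libraries were deposited by the authors as 2 tables. Per the labels and the study's methods, full-length RNA libraries were trimmed with fastp 0.20.0, mapped to GRCm38 with STAR 2.7.3a, filtered for mapping quality of at least 5 with SAMtools 1.9, cleared of duplicates with Picard 2.21.1 and counted without strand by HTSeq 0.11.2. The annotation release is not given in the sources used here, and the authors' normalized tables were not used. Each table was fitted alone with all its groups in edgeR 4.0.16 (R 4.3.3): genes kept by filterByExpr (19310 adult, 20196 neonatal), TMM scaling, quasi-likelihood test, Benjamini-Hochberg adjustment over all tested genes, prior count 0.125. A call needed an adjusted p under 0.05 and a 2-fold change. Standard errors are the log2 fold change divided by the root of F. The procedure was tested on simulated data.

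The members, gene lists and tests were chosen with earlier results of these data known. All members were named, beside Aire, Eed, the tested genes inside the domain, called flanking genes and leading list genes. A gene first put in the thyroid hormone list is not reported here. Replicates of a group differed beyond sampling noise in all 92 pairs compared. Same-numbered libraries deviated together, with correlations of 0.139 to 0.222 between fractions of adult AireKO, 0.108 to 0.213 between mTEChi AireEEDdKO and AireKO, and 0.291 to 0.416 between fractions of AireEEDdKO, and were taken as paired there from the data alone, since no label says what a number marks. Alternatives changed the scaling, filter, prior count, covariates (age, sex, replicate block), tool (DESeq2 1.42.0) and libraries. Total counts of about 1578579 to 4817418 per library limit genes of few counts, such as Dio3.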

Additional observations from a re-analysis of the deposited data

Results flagged for a closer look

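Dixon's criterion was applied 42 times, each time to 1 member in 1 group of 4 to 8 libraries. In 6 of the 42, 1 library stood apart from the others of its group. The nominal rate of about 1 in 20 holds for normally spread values. Counts near 0, such as those of Dio3, are not spread in this way, so no excess is read from the 6. Replicate 1 of adult mTEClo AireKO stood apart for Mirg (21.3 CPM, where the other libraries had at most 3.30) and for Rtl1 (18.5 CPM, where the others had at most 3.90), and replicate 2 of that group for Begain (8.09 CPM). Replicate 5 of adult mTEClo WT stood apart for Rian (87.5 CPM), replicate 1 of the same group for Dio3 (1.14 CPM), and replicate 1 of neonatal mTEChi Ctrl for Dio3 (0.558 CPM). The interaction test in edgeR gave a different effect of Aire loss in adult mTEChi than in adult mTEClo for Begain (-2.76 on the log2 scale, adjusted p 0.0018), Dlk1 (-7.73, adjusted p 1.4e-06), Meg3 (-3.76, adjusted p 0.0037) and Rian (-2.56, adjusted p 0.0097), lower in 4 of 4 mTEChi AireKO libraries for each of them. Whether these libraries differ in handling was not tested, and the lack of mitochondrial counts in adult mTEChi AireKO cannot be told apart from genotype.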

How the results depend on the processing

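Over all alternatives, 394 counts of members and summed levels stayed near the main value, 21 were weaker and 2 stronger, while 1943 values of single members kept their direction and their side of the threshold or, where not tested, moved by less than the spread between replicates. Members called in adult mTEChi AireKO against WT numbered 3 when only genes reaching 10 counts throughout a group were kept, where fewer genes were tested, and in adult AireKO mTEChi against mTEClo 3 with that filter and 3 with only the compared groups in the fit, beside 6 and 5 in the main fits. In neonatal mTEChi AireKO against Ctrl, 4 members were called with no filter and 4 by DESeq2, beside 2. In mTEClo AireEEDdKO against EEDcKO the 2 calls became 1 with age, 1 with sex and 0 with only the compared groups; the cause was not tested. With the replicate block, 1 member was called in neonatal mTEChi AireKO against Ctrl and 1 in mTEClo AireEEDdKO against EEDcKO. Begain in adult WT gained a call and Rtl1 in adult mTEChi AireKO lost its call. The block changed no other call in the tested comparisons, including those between fractions of adult AireKO and of AireEEDdKO, where numbers paired. In mTEChi AireEEDdKO against AireKO, where numbers paired too, the members have no test.

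Leaving out 1 library at a time gave 5 to 6 calls in adult mTEChi AireKO, 0 to 0 in adult mTEClo AireKO, 4 to 5 for the interaction, 1 to 2 in neonatal mTEChi AireKO, 5 to 6 in mTEChi AireEEDdKO against EEDcKO and 0 to 2 in mTEClo. It gave 3 to 4, 4 to 5, 2 to 2, 2 to 6 and 1 to 3 calls between the fractions of adult WT, adult AireKO, Ctrl, EEDcKO and AireEEDdKO. In the comparisons that vary EED, where the members have no test, the number with a fitted change of at least 2-fold was 6 to 7 in mTEChi EEDcKO, and stayed at 7, 6 and 7 in mTEClo EEDcKO, mTEChi AireEEDdKO and mTEClo AireEEDdKO.

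Counts over all genes moved by more than 1.5 times in some fits. With no filter, 8046 genes were called in adult mTEChi AireKO (main 4516) and 13803 between the adult WT fractions (main 6956), and with age 1056 in adult mTEClo AireKO (main 1605). With only the compared groups, 1749 were called in mTEChi AireEEDdKO against EEDcKO (main 2696) and 40 in mTEClo (main 1071), where leaving out AireEEDdKO replicate 1 or 2 or EEDcKO replicate 1 gave 377, 539 and 705. With no minimum change every comparison called more genes, from 1619 to 13574.

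Directions turned only for values that had not passed the test. In adult mTEClo AireKO, Rian (main -0.16) was 0.16 with the replicate block, 0.36 with age, 0.08 with sex and 0.48 without the libraries that lack mitochondrial counts. Between the fractions of AireEEDdKO, Mirg (main -0.03) was 0.02 with RLE factors, 0.02 with the strict filter, 0.0 with age, 0.02 in DESeq2 and 0.01 with only the compared groups, and Rtl1 (main 0.11) was -0.01 by library size alone and -0.02 with sex. Dio3 in mTEClo AireEEDdKO against EEDcKO was 0.39 with age and 0.41 with sex. Without 1 library, values in adult mTEClo AireKO ran from -0.34 to 0.76 for Dlk1, -0.49 to 0.67 for Meg3, -0.81 to 0.75 for Rtl1, -0.79 to 0.21 for Rian and -0.58 to 1.02 for Mirg, with replicate 1 of AireKO giving each lowest value. They ran from -1.53 to 0.30 for Mirg between fractions of adult AireKO, from -0.27 to 0.14 for Begain and -0.85 to 0.02 for Dio3 in mTEClo AireEEDdKO against EEDcKO, and from -0.48 to 0.16 for Meg3, -0.54 to 0.42 for Rtl1 and -0.38 to 0.19 for Mirg between the fractions of AireEEDdKO.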
